A study of Homo sapiens with 12 samples.

Results

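The 58 genes described here encode the enzymes, and the partner subunits they need, that chemically modify human tRNA: tRNA methyltransferases, the Elongator and thiolation systems of the wobble uridine, pseudouridine and dihydrouridine synthases, the queuosine and adenosine-modifying enzymes and the tRNA deaminases. They were taken from a fixed list of symbols that leaves out TRMT112 and the methyltransferases it activates. All 58 were found in the count table, and 58 of 58 passed the filter on low counts that kept 16538 of 24559 gene symbols. The libraries, 12 in all and 2 in each of 6 groups, were made from RNA of polysome fractions of 3 established triple-negative breast cancer (TNBC) cell lines. MDA-MB-231 and SUM159 carried either a TRMT112 shRNA (KD) or a control labelled empty vector (EV). The methods describe this control as a non-silencing shRNA in the same GIPZ lentiviral backbone, and both arms were selected with puromycin. BT549 carried either the TRMT112 open reading frame (OE) or the empty pReceiver-M02 vector (EV), both under G418. The lines were also grown in different media, so line and medium cannot be told apart between EV groups, nor can the vector where BT549 is compared. All cells received cycloheximide before lysis, and only the pooled polysome part of each sucrose gradient was sequenced. Nothing in the labels says whether the 2 libraries of a group came from separate cultures, and p-values therefore measure the spread between libraries, which may be technical. Without libraries of total RNA, a change in the amount of an mRNA and a change in its ribosome loading cannot be told apart.

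Transfer RNA is the most heavily modified RNA of the cell. Modifications in the body of the molecule, placed mostly by methyltransferases, dihydrouridine synthases and pseudouridine synthases, support folding and stability, whereas those at the wobble position and beside the anticodon tune decoding and reading-frame maintenance. Many of the enzymes work as obligate pairs or larger complexes (METTL1 with WDR4, TRMT6 with TRMT61A, QTRT1 with QTRT2, ADAT2 with ADAT3, Elongator, KEOPS), so that the level of 1 subunit alone does not set the activity. Several of them, among them NSUN2, METTL1 and Elongator, are known for raised levels in tumours. TRMT112 itself is a small cofactor that stabilizes methyltransferases of rRNA, tRNA and proteins.

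TRMT112 checked the labels. Its normalized counts (counts divided by the library's effective size, on the scale of the mean library) in MDA-MB-231 were 4147 and 3938 in EV against 1764 and 1682 in KD, in SUM159 6332 and 6566 in EV against 3909 and 3699 in KD and in BT549 3076 and 3087 in EV against 4286 and 4319 in OE. Total expected counts per library lay between 22954226 and 27434677, and the median absolute log2 difference between the 2 libraries of a group, over the members, lay between 0.06 and 0.10. Of the breast receptor genes, ESR1 was not listed, PGR had group means of at most 6.63 normalized counts, and ERBB2 had group means between 1412 and 3359.7 normalized counts. Of 5 epithelial genes, EPCAM, CDH1 and KRT19 had group means of at most 70.9 in every line, with CDH1 and KRT19 highest in BT549 EV (57.2 and 16.0), whereas KRT8 and KRT18 had group means of at least 4515 in MDA-MB-231 and SUM159 and were close to 0 in BT549. Of the mesenchymal genes CDH2 was close to 0 in MDA-MB-231 alone. VIM had group means from 17136 (BT549 OE) to 47402 (BT549 EV). Of the genes of other cell types, CD68 had group means from 165 (BT549 OE) to 4710.4 (MDA-MB-231 KD), PTPRC and PECAM1 had group means of at most 95.8, and CD3E and VWF were not listed. The summed counts of 10 proliferation genes were 41469.8 to 41882 in SUM159 EV and 24281 to 24367 in SUM159 KD, with 9 of 10 lower. In MDA-MB-231 they were 27889.9 to 27937 in EV and 28053 to 28105 in KD, and in BT549 30634 to 31098 in EV and 29874 to 30922 in OE. The summed counts of 10 interferon-response genes were 203544 to 207602 in BT549 EV and 2513 to 2752 in BT549 OE, with 10 of 10 lower. These shifts run alongside the member changes in SUM159 and BT549 given below, and their part in those changes was not tested.

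The tRNA modification genes moved most in SUM159, and there mainly downward. In SUM159 KD, 35 of 58 members (60.3%) fell and 11 (19.0%) rose at an adjusted p under 0.05 (edgeR's quasi-likelihood test, Benjamini-Hochberg over all genes tested), with a median log2 fold change of -0.43. Among all genes tested, 31.4% were called lower and 28.6% higher, with a median of 0.00. In MDA-MB-231 KD, 18 members (31.0%) fell and 7 (12.1%) rose, beside 16.5% lower and 21.2% higher among all genes, and the median of the members was -0.05. In BT549 OE, 25 members (43.1%) rose and 19 (32.8%) fell, close to the 35.6% higher and 35.0% lower among all genes, with a member median of 0.09 beside 0.02. Changes were modest in size. Taken without sign, the members' median log2 fold change was 0.16 in MDA-MB-231, 0.47 in SUM159 and 0.33 in BT549, beside 0.23, 0.46 and 0.70 over all genes. A log2 fold change of at least 1 in either direction was reached by 0 called members in MDA-MB-231, by 4 in SUM159, all lower (NSUN2, QTRT2, QTRT1 and TRMT5), and by 3 in BT549 (DUS2 and PUS3 higher, TRMT2A lower). Of all genes, 1.6% reached it upward and 1.61% downward in MDA-MB-231, 7.28% and 8.39% in SUM159, and 16.1% and 15.2% in BT549. Scaling by library size alone left 2 members higher and 25 lower in MDA-MB-231 in place of 7 and 18, and over all genes it gave 2363 higher and 4082 lower there in place of 3505 and 2735. Fewer members were called higher in MDA-MB-231 without its first EV library, and in SUM159 without its first EV or its first KD library. Among all genes, too, fewer were called higher in these fits.

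**Figure D1:**
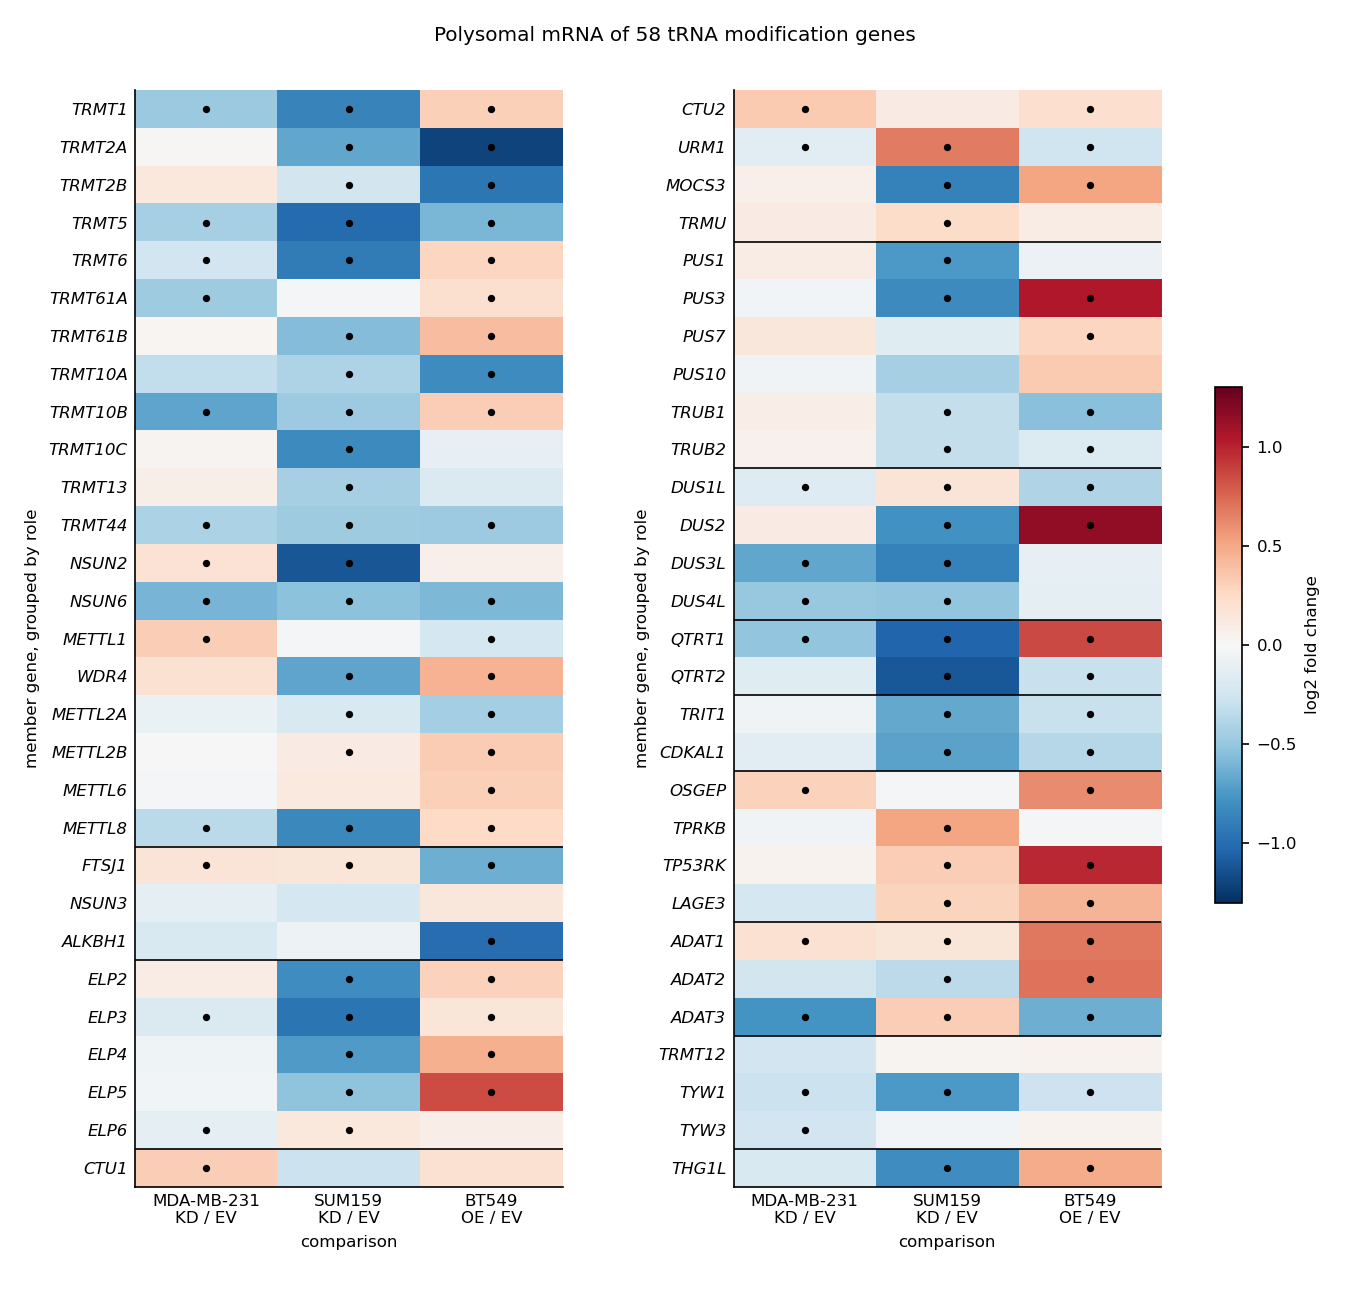
Colour gives the log2 fold change of polysomal mRNA for each of the 58 members (rows, separated by lines into roles) in the 3 comparisons (columns, KD or OE against EV), and a black dot marks an adjusted p under 0.05. The middle column is mostly blue, with 35 members lower in SUM159 KD, whereas MDA-MB-231 has 25 dots and BT549 a mixture of 25 higher and 19 lower.

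Methyltransferases of the tRNA body and of the position beside the anticodon were the largest group. Of these 20 genes, 16 fell and 1 rose in SUM159 KD, 8 fell and 2 rose in MDA-MB-231 KD, and 8 fell and 9 rose in BT549 OE. The SUM159 counts stand beside 31.4% lower and 28.6% higher of all genes, and the MDA-MB-231 counts beside 16.5% and 21.2%. The BT549 count is near the 35.0% lower and 35.6% higher of all genes. NSUN2, on chromosome 5 from 6599239 to 6633291 (GRCh38, as all positions here), places m5C in many tRNAs. Its normalized counts in SUM159 were 4646 and 4753 in EV against 2135 and 2211 in KD, so that both KD libraries lay far below both EV libraries. The NSUN2 log2 fold change was -1.11 (SE 0.04, edgeR adjusted p = 1.36e-16). In MDA-MB-231 they were 3364 and 3402 in EV against 3954 and 3744 in KD, and the KD libraries were both higher. The NSUN2 log2 fold change was 0.19 (SE 0.04, edgeR adjusted p = 0.00069), although scaling by library size alone gave 0.10 with an edgeR adjusted p of 0.0507. NSUN6, the m5C enzyme of the acceptor stem, fell in each of the 3 comparisons, by 0.60 in MDA-MB-231, 0.54 in SUM159 and 0.59 in BT549 on the log2 scale (edgeR adjusted p = 0.015, 0.00635 and 0.00573). Without the first EV, the second EV and the second KD library of MDA-MB-231 its value there was -0.61, -0.60 and -0.55 (edgeR adjusted p = 0.0565, 0.0619 and 0.0906), and without the first EV library of BT549 it was -0.46 (edgeR adjusted p = 0.0739). It was among the least abundant members, with group means between 57.0 and 163 normalized counts.

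TRMT5, which methylates the guanosine beside the anticodon and guards the reading frame, also fell in each comparison. Its counts in SUM159 were 993 and 1005 in EV against 500.0 and 496 in KD. Both TRMT5 values in KD lay below both in EV, a log2 fold change of -1.01 (SE 0.08, edgeR adjusted p = 9.57e-11). Its log2 fold changes were -0.43 ± 0.08 (SE) in MDA-MB-231 and -0.59 ± 0.10 (SE) in BT549. TRMT44, a ribose methyltransferase of serine tRNA, had log2 fold changes of -0.41, -0.46 and -0.47 in the same order (edgeR adjusted p = 0.0126, 0.00903 and 0.0219). All 3 calls of TRMT44 rested on single libraries. It was -0.29 and -0.38 (edgeR adjusted p = 0.182 and 0.0875) without the first EV and the first KD library of MDA-MB-231, -0.39 and -0.41 (edgeR adjusted p = 0.0754 and 0.0585) without those of SUM159, and -0.23 and -0.39 (edgeR adjusted p = 0.334 and 0.126) without the first EV and the second OE library of BT549. TRMT1, the dimethylguanosine enzyme of the junction between the D arm and the anticodon arm, fell in both KD lines and rose in BT549 OE. Its counts were 1107 and 1099 in EV against 763 and 817 in KD of MDA-MB-231. Both TRMT1 values in KD lay below both in EV, a log2 fold change of -0.48 (SE 0.06, edgeR adjusted p = 1.44e-06). In SUM159 they were 1048 and 1081 in EV against 551 and 611 in KD. Both TRMT1 values in KD lay below both in EV, a log2 fold change of -0.87 (SE 0.07, edgeR adjusted p = 5.28e-11). In BT549 they were 1023 and 982 in EV against 1213 and 1280.2 in OE. Both TRMT1 values in OE lay above both in EV, a log2 fold change of 0.31 (SE 0.06, edgeR adjusted p = 9.57e-05).

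TRMT2A, which makes the methyluridine of the T loop, and its mitochondrial counterpart TRMT2B were the methyltransferases with the largest falls in BT549 OE. The TRMT2A counts there were 1968 and 1956 in EV against 870.4 and 834 in OE. Both TRMT2A values in OE lay below both in EV, a log2 fold change of -1.20 (SE 0.06, edgeR adjusted p = 6.55e-15). Those of TRMT2B were 443 and 449.6 in EV against 236 and 229 in OE. Both TRMT2B values in OE lay below both in EV, a log2 fold change of -0.94 (SE 0.10, edgeR adjusted p = 2.31e-08). Both also fell in SUM159 KD (log2 fold changes -0.67 and -0.24), and neither passed in MDA-MB-231 KD (0.02 and 0.13). TRMT2B in SUM159 was -0.07 and -0.21 (edgeR adjusted p = 0.588 and 0.115) without the first EV and the second KD library, and TRMT2A in SUM159 was -0.24 (edgeR adjusted p = 0.589) with its leading transcript alone. The TRMT10 family methylates purines at the junction of the acceptor stem and the D arm. TRMT10B counts were 414 and 460.2 in EV against 266 and 278 in KD of MDA-MB-231. Both TRMT10B values in KD lay below both in EV, a log2 fold change of -0.68 (SE 0.09, edgeR adjusted p = 3.7e-06). In SUM159 they were 251 and 241 in EV against 192 and 164 in KD. Both TRMT10B values in KD lay below both in EV, a log2 fold change of -0.47 (SE 0.11, edgeR adjusted p = 0.00073). The difference between these falls did not pass (-0.21 ± 0.15 (SE), edgeR adjusted p = 0.255). In BT549 TRMT10B rose, with 547 and 524 in EV against 677 and 659.9 in OE. Both TRMT10B values in OE lay above both in EV, a log2 fold change of 0.32 (SE 0.09, edgeR adjusted p = 0.00208). TRMT10A fell in SUM159 KD and BT549 OE (-0.40 and -0.82), and TRMT10C, a subunit of mitochondrial RNase P, fell in SUM159 KD (-0.83 ± 0.11 (SE)). TRMT10A in SUM159 was -0.34 and -0.39 (edgeR adjusted p = 0.0806 and 0.0508) without the first EV and the second KD library. Of TRMT10B's exonic bases, 21.0% lie opposite exons of EXOSC3 and a further gene, and since the strand setting of the counting is not given, reads of the 2 strands cannot be told apart for it.

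The catalytic and partner subunits of a complex did not always move together. TRMT61A and TRMT6 form the enzyme of the methyladenosine in the T loop, with catalysis by TRMT61A. In MDA-MB-231 both fell: TRMT61A by 0.46 on the log2 scale (597 and 605 in EV against 462 and 409 in KD, edgeR adjusted p = 3e-05) and TRMT6 by 0.25 (1108 and 1169 in EV against 964 and 947 in KD, edgeR adjusted p = 0.00166). In SUM159 TRMT6 had 1096 and 1106 in EV against 563 and 609 in KD. Both TRMT6 values in KD lay below both in EV, a log2 fold change of -0.91 (SE 0.06, edgeR adjusted p = 1.78e-11). TRMT61A had 857 and 840.4 in EV against 842 and 837 in KD there and did not pass. The TRMT61A groups overlapped, with a log2 fold change of -0.02 (SE 0.07, edgeR adjusted p = 0.87). The KD effects on the 2 genes differed between the lines in opposite directions (log2 difference, MDA-MB-231 minus SUM159, 0.65 ± 0.09 (SE) for TRMT6 and -0.45 ± 0.10 (SE) for TRMT61A, edgeR adjusted p = 1.17e-06 and 0.000607). In BT549 OE both rose, TRMT61A by 0.21 and TRMT6 with 932 and 1019.8 in EV against 1167 and 1204 in OE. Both TRMT6 values in OE lay above both in EV, a log2 fold change of 0.28 (SE 0.06, edgeR adjusted p = 0.000314). TRMT61A in BT549 was 0.14 (edgeR adjusted p = 0.0911) without the first OE library. METTL1 and WDR4 together methylate a guanosine of the variable loop. WDR4 fell in SUM159 KD, with 1538 and 1558 in EV against 1001 and 924 in KD. Both WDR4 values in KD lay below both in EV, a log2 fold change of -0.69 (SE 0.06, edgeR adjusted p = 1.45e-10). METTL1 had 793 and 712 in EV against 763 and 714 in KD there and did not pass. The METTL1 groups overlapped, with a log2 fold change of -0.03 (SE 0.07, edgeR adjusted p = 0.767). In MDA-MB-231 it was METTL1 that rose, with 265 and 267 in EV against 329.8 and 332 in KD. Both METTL1 values in KD lay above both in EV, a log2 fold change of 0.32 (SE 0.09, edgeR adjusted p = 0.00965). Without the first MDA-MB-231 EV library the METTL1 value was 0.31 with an edgeR adjusted p of 0.0523. In BT549 OE WDR4 rose (0.46 ± 0.05 (SE)) and METTL1 fell (-0.23 ± 0.06 (SE)). Without the first OE library METTL1 was -0.16 (edgeR adjusted p = 0.0816).

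The m3C enzymes are METTL2A, METTL2B and METTL6 for cytosolic tRNA and METTL8 for mitochondrial tRNA. METTL8 counts were 662 and 661 in EV against 538 and 499 in KD of MDA-MB-231. Both METTL8 values in KD lay below both in EV, a log2 fold change of -0.35 (SE 0.07, edgeR adjusted p = 0.000504). In SUM159 they were 1083 and 1079.7 in EV against 578 and 629.6 in KD. Both METTL8 values in KD lay below both in EV, a log2 fold change of -0.84 (SE 0.07, edgeR adjusted p = 2.12e-10). In BT549 they were 291 and 320.0 in EV against 365 and 368 in OE. Both METTL8 values in OE lay above both in EV, a log2 fold change of 0.26 (SE 0.09, edgeR adjusted p = 0.0138). The BT549 call rested on single libraries: without the first EV library the log2 fold change was 0.19 with an edgeR adjusted p of 0.144, and without the second OE library 0.25 with an edgeR adjusted p of 0.0555. METTL2A and METTL2B are related copies that share part of their sequence. Of the stretches of 150 bases in METTL2A's leading coding transcript, 5.26% occur in METTL2B as well, so that reads may be divided between them. Of those in METTL2B's, 9.86% occur in other genes, with 6.61% in an unnamed gene that overlaps it on the same strand. METTL2A had 1479 and 1537 in EV against 1270.2 and 1347 in KD of SUM159. Both METTL2A values in KD lay below both in EV, a log2 fold change of -0.20 (SE 0.05, edgeR adjusted p = 0.00204). METTL2B had 1835 and 1869 in EV against 1953 and 2040.2 in KD. Both METTL2B values in KD lay above both in EV, a log2 fold change of 0.11 (SE 0.05, edgeR adjusted p = 0.0407). In MDA-MB-231 neither passed, with METTL2A counts of 1261 and 1298 in EV against 1198 and 1206 in KD. Both METTL2A values in KD lay below both in EV, a log2 fold change of -0.09 (SE 0.05, edgeR adjusted p = 0.215). The METTL2B counts were 1417 and 1482 in EV against 1433 and 1468 in KD. The METTL2B groups overlapped, with a log2 fold change of 0.00 (SE 0.05, edgeR adjusted p = 1). In BT549 OE METTL2A fell, with 1079.6 and 1156 in EV against 805 and 835 in OE. Both METTL2A values in OE lay below both in EV, a log2 fold change of -0.45 (SE 0.06, edgeR adjusted p = 5.94e-07). METTL2B rose, with 1316 and 1312 in EV against 1638 and 1675 in OE. Both METTL2B values in OE lay above both in EV, a log2 fold change of 0.33 (SE 0.05, edgeR adjusted p = 2.16e-06). The METTL2B call in SUM159 was lost without any 1 of 11 libraries, with log2 fold changes of 0.08 to 0.12.

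Elongator, the acetyltransferase complex that starts the carboxymethyl side chain of the wobble uridine, had 4 of its 5 listed subunits lower in SUM159 KD. Of the 58 members 60.3% were lower there, and of all genes 31.4%. ELP2, ELP3, ELP4 and ELP5 fell by 0.81, 0.95, 0.74 and 0.53 on the log2 scale (edgeR adjusted p = 1.49e-08, 7.58e-12, 1.75e-06 and 6.41e-08), whereas ELP6, of the ring with ELP4 and ELP5, did not fall. It had 1643 and 1518 in EV against 1731 and 1741 in KD. Both ELP6 values in KD lay above both in EV, a log2 fold change of 0.14 (SE 0.05, edgeR adjusted p = 0.0197). Without the second EV, the first KD and the second KD library this small rise was 0.08, 0.14 and 0.13 (edgeR adjusted p = 0.306, 0.0542 and 0.0652). In MDA-MB-231 ELP6 fell, with 1519 and 1461 in EV against 1357 and 1365 in KD. Both ELP6 values in KD lay below both in EV, a log2 fold change of -0.13 (SE 0.05, edgeR adjusted p = 0.0438). This call was lost without any 1 of the 4 libraries of that line (edgeR adjusted p from 0.067 to 0.239) and without either BT549 EV library (0.055 and 0.0551). In MDA-MB-231, ELP2, ELP4 and ELP5 did not pass (0.10, -0.06 and -0.04). ELP3, the catalytic subunit, had 1025 and 1017 in EV against 533 and 524 in KD in SUM159. In MDA-MB-231 it had 728 and 752 in EV against 668 and 630.1 in KD. Both ELP3 values in KD lay below both in EV, a log2 fold change of -0.19 (SE 0.06, edgeR adjusted p = 0.0246). In BT549 it had 1453 and 1334 in EV against 1537 and 1567 in OE. Both ELP3 values in OE lay above both in EV, a log2 fold change of 0.15 (SE 0.06, edgeR adjusted p = 0.0176). Small changes of this size depended on single libraries. ELP3 in MDA-MB-231 was -0.16, -0.14 and -0.21 (edgeR adjusted p = 0.153, 0.203 and 0.0502) without the second EV, the second KD and the first EV library. In BT549 it was 0.09 and 0.14 (edgeR adjusted p = 0.27 and 0.0964) without the second EV and the second OE library. In BT549 OE, ELP2, ELP4 and ELP5 rose, and the largest value was that of ELP5, with 1099 and 1009.9 in EV against 1961 and 1826 in OE. Both ELP5 values in OE lay above both in EV, a log2 fold change of 0.84 (SE 0.06, edgeR adjusted p = 2.54e-12). ELP2 in BT549 was 0.15 and 0.25 (edgeR adjusted p = 0.188 and 0.0545) without the second EV and the second OE library, and ELP4 was 0.22 (edgeR adjusted p = 0.255) with protein-coding transcripts alone. Of the exonic bases of ELP4 and ELP5, 19.6% and 18.2% lie opposite exons of other genes.

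The sulfur of the wobble uridine passes from MOCS3, which activates the carrier, to URM1, a ubiquitin-like sulfur carrier, and on to CTU1 and CTU2, which thiolate cytosolic tRNA. In SUM159 KD these steps went opposite ways: MOCS3 fell and URM1 rose. The MOCS3 counts were 286 and 285 in EV against 141 and 168 in KD. Both MOCS3 values in KD lay below both in EV, a log2 fold change of -0.88 (SE 0.13, edgeR adjusted p = 1.78e-06). URM1, on chromosome 9 from 128371361 to 128392016, rose, with 2291 and 2310.2 in EV against 3760.3 and 3584 in KD. Both URM1 values in KD lay above both in EV, a log2 fold change of 0.67 (SE 0.04, edgeR adjusted p = 1.62e-12). In MDA-MB-231 URM1 had 1511 and 1549.6 in EV against 1453 and 1331 in KD. Both URM1 values in KD lay below both in EV, a log2 fold change of -0.14 (SE 0.05, edgeR adjusted p = 0.0293). Without the second EV, the second KD and the first EV library this small fall was -0.11, -0.07 and -0.16 (edgeR adjusted p = 0.181, 0.393 and 0.0545). CTU2 and CTU1 were the members with the largest rises in MDA-MB-231 KD. CTU2 had 1932 and 1903 in EV against 2446 and 2393 in KD. Both CTU2 values in KD lay above both in EV, a log2 fold change of 0.34 (SE 0.05, edgeR adjusted p = 3.33e-06). CTU1 had 702 and 908 in EV against 1044 and 965 in KD. Both CTU1 values in KD lay above both in EV, a log2 fold change of 0.32 (SE 0.10, edgeR adjusted p = 0.019). The EV libraries of CTU1 lay apart, and without the first of them and without the first KD library its value was 0.14 and 0.26 (edgeR adjusted p = 0.378 and 0.153). DESeq2's Wald test did not call it either (0.34, adjusted p = 0.126). Neither passed in SUM159 (-0.28 ± 0.13 (SE) for CTU1 and 0.11 ± 0.05 (SE) for CTU2). CTU2 rose in BT549 OE (0.22 ± 0.07 (SE)), and was 0.18 and 0.18 (edgeR adjusted p = 0.0613 and 0.0616) without the second EV and the second OE library. MOCS3 rose there (0.51 ± 0.11 (SE)) and URM1 fell, with 3151 and 3108 in EV against 2649 and 2591 in OE. Both URM1 values in OE lay below both in EV, a log2 fold change of -0.26 (SE 0.04, edgeR adjusted p = 1.26e-05). TRMU, the mitochondrial thiouridylase, rose in SUM159 KD (0.24 ± 0.06 (SE), edgeR adjusted p = 0.00124) and did not pass in the other 2 comparisons. Without the first KD library the SUM159 value of TRMU was 0.14 (edgeR adjusted p = 0.059).

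FTSJ1 methylates riboses of the anticodon loop and was one of 2 members that rose in both KD lines. Its counts, at chromosome X from 48476021 to 48486364, were 1167 and 1236 in EV against 1380.0 and 1312 in KD of MDA-MB-231. Both FTSJ1 values in KD lay above both in EV, a log2 fold change of 0.16 (SE 0.06, edgeR adjusted p = 0.0348). In SUM159 they were 2505 and 2493 in EV against 2798 and 2767 in KD. Both FTSJ1 values in KD lay above both in EV, a log2 fold change of 0.15 (SE 0.05, edgeR adjusted p = 0.0125). In BT549 OE they fell, with 2766 and 2712 in EV against 1909 and 1624 in OE. Both FTSJ1 values in OE lay below both in EV, a log2 fold change of -0.63 (SE 0.05, edgeR adjusted p = 3.83e-10). Both rises were small. Without the first EV and the first KD library of MDA-MB-231 that rise was 0.12 and 0.13 (edgeR adjusted p = 0.242 and 0.23). Without the first EV, the second EV and the first KD library of SUM159 the other was 0.16, 0.15 and 0.15 (edgeR adjusted p = 0.0573, 0.071 and 0.0583). NSUN3 and ALKBH1 act in turn to make f5C in mitochondrial methionine tRNA. ALKBH1 passed in BT549 alone, where it fell, with 589 and 557 in EV against 306 and 269 in OE. Both ALKBH1 values in OE lay below both in EV, a log2 fold change of -0.99 (SE 0.11, edgeR adjusted p = 2.14e-08). NSUN3 passed in none of the 3 comparisons (log2 fold changes -0.12, -0.23 and 0.15).

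Pseudouridine synthases convert uridine to its carbon-linked isomer. None of the 6 passed in MDA-MB-231 KD, where their log2 fold changes ran from -0.04 to 0.15. Of all genes, 16.5% were called lower and 21.2% higher there. In SUM159 KD 4 of 6 fell, beside 60.3% of the 58 members and 31.4% of all genes. PUS3, which acts in the anticodon arm, fell most in SUM159, with 319.9 and 301 in EV against 180.5 and 169 in KD. Both PUS3 values in KD lay below both in EV, a log2 fold change of -0.83 (SE 0.12, edgeR adjusted p = 3.02e-06). PUS1 had 2330.4 and 2359 in EV against 1433 and 1361 in KD. Both PUS1 values in KD lay below both in EV, a log2 fold change of -0.75 (SE 0.06, edgeR adjusted p = 4.32e-11). TRUB1 and TRUB2, the T-loop enzyme and its mitochondrial relative, fell by 0.30 and 0.31. PUS7 and PUS10 did not pass there (-0.16 and -0.43). In BT549 OE PUS3 rose, with 229.9 and 234 in EV against 498 and 458 in OE. Both PUS3 values in OE lay above both in EV, a log2 fold change of 1.05 (SE 0.12, edgeR adjusted p = 2.64e-08). PUS7 rose as well (0.28 ± 0.09 (SE)), whereas TRUB1 and TRUB2 fell (-0.54 ± 0.08 (SE) and -0.18 ± 0.05 (SE)). The rise of PUS7 was 0.24 and 0.22 (edgeR adjusted p = 0.0615 and 0.0758) without the first EV and the first OE library, and 0.01 (edgeR adjusted p = 0.974) with its leading transcript alone. PUS10 was the least abundant member in BT549, with 27.4 and 39.9 in EV against 35.4 and 49.8 in OE.

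Dihydrouridine synthases reduce uridines of the D arm and the variable loop. DUS3L counts were 1134 and 1131 in EV against 751 and 668 in KD of MDA-MB-231. Both DUS3L values in KD lay below both in EV, a log2 fold change of -0.67 (SE 0.07, edgeR adjusted p = 3.41e-08). In SUM159 they were 3131 and 3002 in EV against 1782 and 1553 in KD. Both DUS3L values in KD lay below both in EV, a log2 fold change of -0.88 (SE 0.05, edgeR adjusted p = 1.46e-12). In BT549 OE DUS3L did not pass (-0.11 ± 0.06 (SE)). DUS4L fell in both KD lines (-0.50 ± 0.16 (SE) and -0.52 ± 0.12 (SE), edgeR adjusted p = 0.0158 and 0.000809), although 43.1% of the 150-base stretches of its leading coding transcript also occur in the readthrough gene DUS4L-BCAP29, so the count cannot be assigned to it with certainty. In MDA-MB-231 it was -0.47 and -0.39 (edgeR adjusted p = 0.0829 and 0.141) without the second EV and the second KD library. DUS2 fell in SUM159 KD, with 502 and 488 in EV against 266 and 306 in KD. Both DUS2 values in KD lay below both in EV, a log2 fold change of -0.78 (SE 0.10, edgeR adjusted p = 6.16e-07). It had the largest rise of the 58 members in BT549 OE, with 173 and 129.6 in EV against 349.9 and 325 in OE. Both DUS2 values in OE lay above both in EV, a log2 fold change of 1.16 (SE 0.13, edgeR adjusted p = 2.03e-08). DUS1L ran the other way in SUM159, with 2595 and 2717 in EV against 3036 and 2919 in KD. Both DUS1L values in KD lay above both in EV, a log2 fold change of 0.16 (SE 0.04, edgeR adjusted p = 0.00286). In MDA-MB-231 it had 978 and 953 in EV against 830.0 and 896 in KD. Both DUS1L values in KD lay below both in EV, a log2 fold change of -0.16 (SE 0.06, edgeR adjusted p = 0.0279). Without the first KD, the first EV and the second EV library that value was -0.11, -0.15 and -0.18 (edgeR adjusted p = 0.287, 0.137 and 0.0656). The SUM159 value was 0.13 with an edgeR adjusted p of 0.0618 without the first EV library. In BT549 OE DUS1L fell (-0.40 ± 0.05 (SE)).

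The queuosine pair fell together in SUM159 KD. QTRT1 is the catalytic subunit of the transglycosylase that exchanges the wobble guanine for queuine, and QTRT2 is its partner. QTRT1, on chromosome 19 from 10701430 to 10713437, had 1745 and 1811 in EV against 915 and 829 in KD. Both QTRT1 values in KD lay below both in EV, a log2 fold change of -1.03 (SE 0.06, edgeR adjusted p = 1.09e-12). QTRT2, on chromosome 3 from 114005833 to 114088422, had 648 and 728 in EV against 291 and 349 in KD. Both QTRT2 values in KD lay below both in EV, a log2 fold change of -1.10 (SE 0.10, edgeR adjusted p = 8.13e-10). In MDA-MB-231 QTRT1 fell, with 1738 and 1626 in EV against 1150.4 and 1206 in KD. Both QTRT1 values in KD lay below both in EV, a log2 fold change of -0.51 (SE 0.06, edgeR adjusted p = 3.83e-07). QTRT2 had 460.0 and 443 in EV against 373 and 435 in KD and did not pass. Both QTRT2 values in KD lay below both in EV, a log2 fold change of -0.16 (SE 0.10, edgeR adjusted p = 0.221). In BT549 OE the pair separated. QTRT1 rose, with 1391 and 1444 in EV against 2723 and 2421 in OE. Both QTRT1 values in OE lay above both in EV, a log2 fold change of 0.86 (SE 0.06, edgeR adjusted p = 4.73e-12). QTRT2 fell, with 587 and 587 in EV against 453 and 507 in OE. Both QTRT2 values in OE lay below both in EV, a log2 fold change of -0.29 (SE 0.10, edgeR adjusted p = 0.0106). The QTRT2 value was -0.21 (edgeR adjusted p = 0.119) without the first OE library and changed sign with its leading transcript alone, 0.17 (edgeR adjusted p = 0.561).

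The adenosine beside the anticodon carries an isopentenyl group (TRIT1), a threonylcarbamoyl group (the KEOPS complex of OSGEP, TP53RK, TPRKB, LAGE3 and GON7) or a methylthio group added to these (CDKAL1 for cytosolic lysine tRNA). TRIT1 and CDKAL1 fell in SUM159 KD by 0.67 and 0.70 on the log2 scale and in BT549 OE by 0.29 and 0.37, and did not pass in MDA-MB-231 (-0.04 and -0.14). The fall of TRIT1 in BT549 did not hold for its coding mRNA, with 0.02 (edgeR adjusted p = 0.918) for protein-coding transcripts and 0.68 (edgeR adjusted p = 0.057) for the leading transcript. CDKAL1 there was -0.35 and -0.27 (edgeR adjusted p = 0.0718 and 0.154) without the first EV and the second OE library. Of the 4 KEOPS members, 3 rose in SUM159 KD, beside 28.6% of all genes. TPRKB rose, with 895 and 907 in EV against 1260.2 and 1314 in KD. Both TPRKB values in KD lay above both in EV, a log2 fold change of 0.52 (SE 0.06, edgeR adjusted p = 4.52e-08). With its leading transcript alone TPRKB was also 0.52 but was not called (edgeR adjusted p = 0.116). TP53RK, the kinase-like subunit, rose, with 497 and 549.9 in EV against 666 and 645 in KD. Both TP53RK values in KD lay above both in EV, a log2 fold change of 0.32 (SE 0.08, edgeR adjusted p = 0.00139). LAGE3 rose, with 664 and 664 in EV against 847 and 784 in KD. Both LAGE3 values in KD lay above both in EV, a log2 fold change of 0.29 (SE 0.07, edgeR adjusted p = 0.00104). OSGEP, the catalytic subunit, had 757 and 854 in EV against 849.9 and 743 in KD and did not pass. The OSGEP groups overlapped, with a log2 fold change of -0.02 (SE 0.08, edgeR adjusted p = 0.856). In MDA-MB-231 OSGEP alone of the 4 KEOPS members passed, and it rose, with 1179.7 and 1258 in EV against 1531 and 1478 in KD. Both OSGEP values in KD lay above both in EV, a log2 fold change of 0.30 (SE 0.07, edgeR adjusted p = 0.000936). GON7 is a KEOPS subunit outside the list of members. Its counts were lower in KD of MDA-MB-231, with 295 and 281 in EV against 160 and 188 in KD. In SUM159 GON7 was higher in KD, with 245 and 285 in EV against 386 and 401 in KD. In BT549 OE TP53RK rose, with 545 and 611 in EV against 1179 and 1106 in OE. Both TP53RK values in OE lay above both in EV, a log2 fold change of 0.98 (SE 0.08, edgeR adjusted p = 6.93e-11). OSGEP and LAGE3 rose (0.61 ± 0.07 (SE) and 0.44 ± 0.05 (SE)), and TPRKB did not pass (-0.02 ± 0.07 (SE)). The wybutosine enzymes of phenylalanine tRNA moved separately: TYW1 was lower in all 3 comparisons (-0.28 ± 0.09 (SE), -0.74 ± 0.09 (SE) and -0.27 ± 0.09 (SE)), TYW3 passed in MDA-MB-231 alone, where it fell (-0.24 ± 0.06 (SE)), and TRMT12 passed in none. In MDA-MB-231 TYW1 was -0.26, -0.29 and -0.17 (edgeR adjusted p = 0.0779, 0.0552 and 0.25) without the first EV, the second EV and the second KD library, and in BT549 -0.21 and -0.18 (edgeR adjusted p = 0.103 and 0.15) without the first EV and the first OE library. Of TYW1's 150-base stretches, 7.48% also occur in its copy TYW1B.

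ADAT2 and ADAT3 form the deaminase that makes wobble inosine, with ADAT2 as the catalytic subunit, and ADAT1 deaminates the adenosine beside the anticodon of alanine tRNA. ADAT3 had the largest fall of any member in MDA-MB-231 KD, with 148 and 174 in EV against 100.2 and 86.7 in KD. Both ADAT3 values in KD lay below both in EV, a log2 fold change of -0.78 (SE 0.15, edgeR adjusted p = 0.000147). In SUM159 it had 209.9 and 240.3 in EV against 288 and 274 in KD. Both ADAT3 values in KD lay above both in EV, a log2 fold change of 0.32 (SE 0.11, edgeR adjusted p = 0.0191). This rise was 0.22 with an edgeR adjusted p of 0.192 without the first EV library and 0.28 with an edgeR adjusted p of 0.0939 without the first KD library. In BT549 ADAT3 counts were 976 and 935 in EV against 658 and 569 in OE. Both ADAT3 values in OE lay below both in EV, a log2 fold change of -0.64 (SE 0.09, edgeR adjusted p = 9.46e-07). ADAT3 lies within SCAMP4, whose exons cover 34.8% of its exonic bases on the same strand, and part of its counts may belong to that gene. ADAT2 fell in SUM159 KD (-0.34 ± 0.08 (SE)) and rose in BT549 OE (0.71 ± 0.12 (SE)). ADAT1 rose in each comparison, with 1227 and 1260.2 in EV against 1388 and 1459 in KD of MDA-MB-231. Both ADAT1 values in KD lay above both in EV, a log2 fold change of 0.19 (SE 0.05, edgeR adjusted p = 0.00313). In SUM159 it had 1294 and 1336 in EV against 1472 and 1469 in KD. Both ADAT1 values in KD lay above both in EV, a log2 fold change of 0.16 (SE 0.05, edgeR adjusted p = 0.00719). In BT549 it had 1219.8 and 1222 in EV against 1921 and 2004 in OE. Both ADAT1 values in OE lay above both in EV, a log2 fold change of 0.68 (SE 0.05, edgeR adjusted p = 1.62e-11). The KD rises of ADAT1 were small: 0.16 and 0.10 (edgeR adjusted p = 0.0538 and 0.112) in MDA-MB-231 without the second KD library and with library size scaling, and 0.14 and 0.09 (edgeR adjusted p = 0.0778 and 0.22) in SUM159 without the first EV library and with the leading transcript alone. THG1L, which adds the extra guanosine to the start of histidine tRNA, fell in SUM159 KD, with 652 and 651 in EV against 351 and 393 in KD. Both THG1L values in KD lay below both in EV, a log2 fold change of -0.81 (SE 0.08, edgeR adjusted p = 7.69e-09). It rose in BT549 OE (0.48 ± 0.07 (SE)), and in MDA-MB-231 it just missed the threshold (-0.20 ± 0.08 (SE), edgeR adjusted p = 0.051).

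Across the 2 KD lines, 12 members (20.7%) fell in both: TRMT1, TRMT5, TRMT6, TRMT10B, TRMT44, NSUN6, METTL8, ELP3, DUS3L, DUS4L, QTRT1 and TYW1. Of all genes tested, 7.47% fell in both. FTSJ1 and ADAT1 rose in both, beside 8.86% of all genes. Of the 12, 6 also rose in BT549 OE (TRMT1, TRMT6, TRMT10B, METTL8, ELP3 and QTRT1), a pattern held by 2.99% of all genes, and 4 also fell there (TRMT5, TRMT44, NSUN6 and TYW1), beside 2.94%. Only FTSJ1 rose in both KD lines and fell in BT549 OE, beside 3.83% of all genes. The 2 KD experiments and the OE experiment share no libraries, but they are in different lines. The number falling in both KD lines was 8 without the first EV, the second EV or the second KD library of MDA-MB-231, where NSUN6, ELP3 and TYW1 were lost each time, with TRMT44 or DUS4L as the fourth. Without the second BT549 OE library METTL8 and ELP3 were lost from the 6, and without the first SUM159 EV library neither FTSJ1 nor ADAT1 was called in both KD lines. With the leading transcript of each gene tested alone it was 6, and of the 6 that also rose in OE only QTRT1 was then called in all 3.

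**Figure D2:**
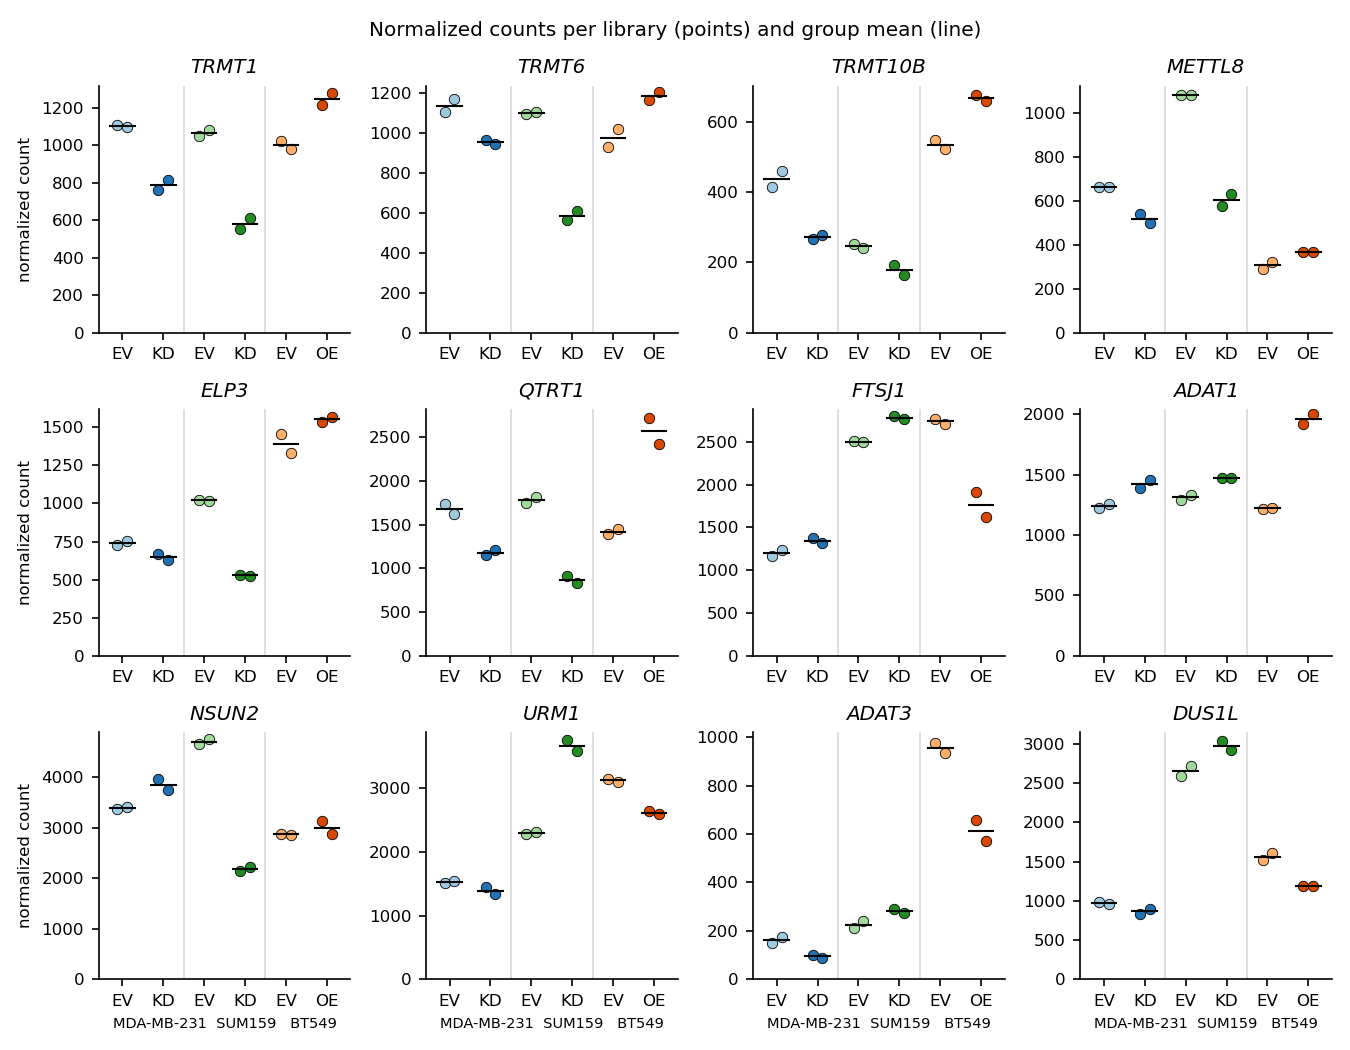
Each panel plots the normalized count of 1 member (vertical axis, starting at 0) in the 12 libraries, with a point for each library and a line at the group mean, grouped by line along the horizontal axis. The first 6 panels are the members that fell in both KD lines and rose in BT549 OE. FTSJ1 and ADAT1 rose in both KD lines, and the bottom row shows NSUN2, URM1, ADAT3 and DUS1L, which were called in opposite directions in the 2 KD lines.

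The bases before the start sites are shown for 5 of the 6 genes called lower in both KD lines and higher in BT549 OE. FTSJ1 is shown as the gene with the opposite pattern. The 6 were grouped by these calls, and whether they share control of transcription was not tested. The windows are the 120 bases upstream of the start in the RefSeq promoters of GRCh38.p14, 5′ to 3′ on the strand of the gene, and capitals mark matches on either strand to CACGTG (the E-box bound by MYC and MAX), GGGCGG (the GC box) and CCGGAA (the core bound by ETS factors and GABP). The TRMT1 window is chr19:13116741-13116860 (minus strand), TRMT6 chr20:5950534-5950653 (minus), TRMT10B chr9:37753685-37753804 (plus), METTL8 chr2:171433991-171434110 (minus), QTRT1 chr19:10701319-10701438 (plus) and FTSJ1 chrX:48476079-48476198 (plus).
TRMT1: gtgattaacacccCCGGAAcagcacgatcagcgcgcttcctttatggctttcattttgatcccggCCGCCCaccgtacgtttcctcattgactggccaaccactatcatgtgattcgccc
TRMT6: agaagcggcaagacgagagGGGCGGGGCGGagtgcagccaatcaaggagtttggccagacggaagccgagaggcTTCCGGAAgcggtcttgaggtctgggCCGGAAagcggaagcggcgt
TRMT10B: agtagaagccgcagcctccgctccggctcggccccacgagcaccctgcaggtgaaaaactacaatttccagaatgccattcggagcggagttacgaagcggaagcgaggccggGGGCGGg
METTL8: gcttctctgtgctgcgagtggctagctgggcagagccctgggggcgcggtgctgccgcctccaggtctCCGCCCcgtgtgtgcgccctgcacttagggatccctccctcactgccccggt
QTRT1: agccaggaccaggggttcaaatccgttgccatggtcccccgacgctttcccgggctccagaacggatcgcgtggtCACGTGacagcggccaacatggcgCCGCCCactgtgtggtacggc
FTSJ1: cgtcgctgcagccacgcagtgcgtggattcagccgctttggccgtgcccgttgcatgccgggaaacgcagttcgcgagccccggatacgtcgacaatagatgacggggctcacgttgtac
The run TTCCGGAA in the TRMT6 window holds 2 overlapping ETS cores, 1 on each strand, and GGGCGGGGCGG holds 2 GC boxes that share 1 base. QTRT1 alone of the 6 has an E-box here, starting 45 bases before the start site. The GC box is the motif of these 3 that each of the 5 genes has in its 120 bases, and FTSJ1 has it, and CCGGAA, elsewhere in its window of 300 bases. Over the whole windows of 300 bases, of which 63 belong to 49 of the 58 members, CCGGAA occurred in 58.7% of member windows, in 25.5% of the 17218 windows of genes tested and in 17.2% of all 35116 windows. GGGCGG occurred in 61.9%, 64.8% and 45.0%, and CACGTG in 7.94%, 9.05% and 7.26%. The members with CACGTG were PUS7, QTRT1, TRMT6, TRMT61A and TRUB2. These are letter matches and not measured binding.

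The KD effect differed between the lines for most members. In the test of the difference, MDA-MB-231 minus SUM159, 32 members (55.2%) had a higher effect and 8 (13.8%) a lower one, beside 27.7% and 23.2% of all genes, and the median difference was 0.35 for the members and 0.00 for all genes. NSUN2 had the largest difference in either direction, 1.30 (SE 0.06, edgeR adjusted p = 9.63e-15). It was the only member that rose in MDA-MB-231 and fell in SUM159 under KD, a pattern of 7.37% of all genes. The other large positive differences were those of MOCS3 (0.94), QTRT2 (0.94), ELP2 (0.91), DUS2 (0.90) and WDR4 (0.88). ELP6, URM1, DUS1L and ADAT3 were called lower in MDA-MB-231 and higher in SUM159, beside 4.87% of all genes, with differences of -0.27, -0.81, -0.33 and -1.10. In MDA-MB-231 the calls of ELP6, URM1 and DUS1L were also lost with DESeq2's Wald test (adjusted p = 0.138, 0.0862 and 0.0747). TRMT10B, TRMT44, NSUN6, DUS4L, FTSJ1 and ADAT1, called in the same direction in both lines, gave differences from -0.21 to 0.06 that did not pass, with standard errors of 0.07 to 0.25. The residual TRMT112 level also differed between the lines, and the summed proliferation genes fell in SUM159 KD alone, as given above, and their part in the difference was not tested.

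**Figure D3:**
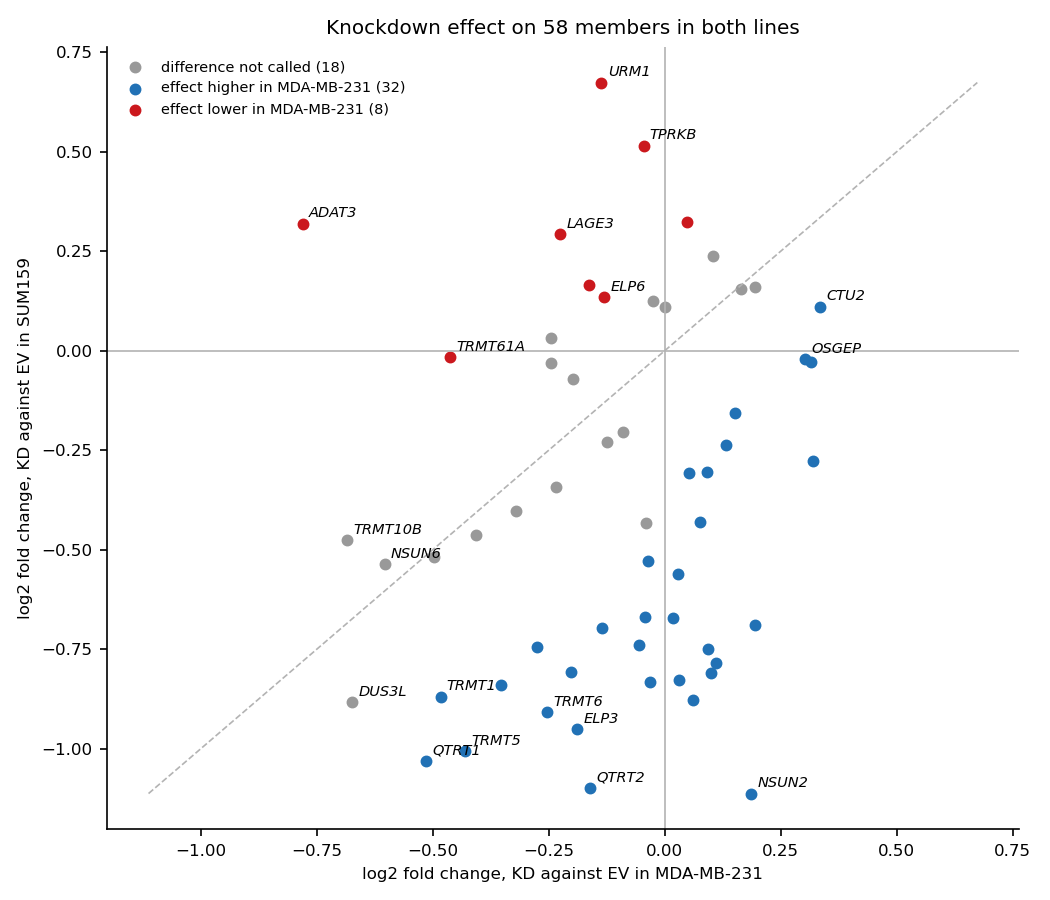
Each point is 1 of the 58 members, with its log2 fold change of KD against EV in MDA-MB-231 on the horizontal axis and in SUM159 on the vertical axis, and the dashed line marks equal effects. Blue points (32) have a higher effect in MDA-MB-231 at an adjusted p under 0.05, red points (8) a lower one, and grey points (18) were not called. Most blue points lie near 0 on the horizontal axis and well below 0 on the vertical one.

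Levels between genes were compared per length, as TPM (each transcript's count divided by its length and scaled to the same total in every library). The members were expressed above the middle of the table: their median was 22.3 TPM in MDA-MB-231 EV, 21.6 in SUM159 EV and 19.3 in BT549 EV, beside 10.6, 9.50 and 7.90 over all genes tested. Their summed TPM was 2187 to 2201 in SUM159 EV and 1745 to 1749 in SUM159 KD, without overlap, and 2069.7 to 2094 and 1914 to 1916 in MDA-MB-231. In BT549 it was 1933 to 1949 in EV and 2069.6 to 2080.0 in OE. The median over all genes tested moved as well, to 7.91 TPM in SUM159 KD, 10.1 in MDA-MB-231 KD and 7.42 in BT549 OE. Summed as normalized counts, the members had 58112 to 58640 in SUM159 EV and 47619 to 47951 in KD. In MDA-MB-231 these sums were 47137 to 47721 and 46023 to 46628, and in BT549 54307 to 54718 in EV and 57038 to 58511 in OE. ELP5 was the most abundant member in MDA-MB-231 EV (159 TPM), DUS3L in SUM159 EV (120.3 TPM) and LAGE3 in BT549 EV (164 TPM). In SUM159 NSUN2 (119 TPM), PUS1 (117 TPM) and URM1 (116 TPM) were close behind DUS3L. The lowest were TRMT10A in MDA-MB-231 (2.61 TPM) and PUS10 in SUM159 and BT549 (4.02 and 1.05 TPM).

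The EV groups of the lines differed in most members, as they did in most genes. MDA-MB-231 EV was lower than SUM159 EV for 34 members and higher for 13, beside 39.2% and 36.4% of all genes. Both subunits of the METTL1-WDR4 enzyme were low in MDA-MB-231. WDR4 had 280.3 and 251 normalized counts in MDA-MB-231 EV, 1538 and 1558 in SUM159 EV and 2183 and 2116 in BT549 EV, so that MDA-MB-231 stood far below both. The log2 difference was -2.54 for MDA-MB-231 against SUM159 (edgeR adjusted p = 5.48e-20) and 3.02 for BT549 against MDA-MB-231 (edgeR adjusted p = 6.66e-22). METTL1 had 265 and 267, 793 and 712 and 1362 and 1349 in the same order. TRMT10A was likewise low in MDA-MB-231, with 64.0 and 66.7 against 292 and 266 in SUM159. The TRMT10A log2 difference was -2.09 (SE 0.15, edgeR adjusted p = 9.12e-12). ELP5 and TRMT2B were the members most raised in MDA-MB-231 over SUM159, with 2558 and 2651 against 1077 and 1113 for ELP5. The ELP5 log2 difference was 1.25 (SE 0.05, edgeR adjusted p = 3.23e-16). For TRMT2B the counts were 1159 and 1176 against 588 and 468. The TRMT2B log2 difference was 1.14 (SE 0.08, edgeR adjusted p = 2.56e-12).

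BT549 EV was higher than MDA-MB-231 EV for 27 members and lower for 22, beside 39.1% and 40.4% of all genes. LAGE3 had 2473 and 2371 in BT549, 341 and 272 in MDA-MB-231 and 664 and 664 in SUM159, so that BT549 stood above both lines (log2 differences 2.98 and 1.87). ELP4 showed the reverse, with 159 and 179 in BT549 and 749.8 and 854 in MDA-MB-231. The ELP4 log2 difference was -2.25 (SE 0.11, edgeR adjusted p = 2.11e-15). CTU2 did so too, with 593 and 571 and 1932 and 1903. The CTU2 log2 difference was -1.72 (SE 0.06, edgeR adjusted p = 1.91e-18). Against SUM159 EV, 18 members were higher and 33 lower in BT549 EV, beside 37.7% and 40.7% of all genes. ADAT3 was the highest of these, with 976 and 935 in BT549 and 209.9 and 240.3 in SUM159. The ADAT3 log2 difference was 2.08 (SE 0.10, edgeR adjusted p = 3.77e-15). Its catalytic partner ADAT2 was the lowest, with 161 and 183 and 804 and 788. The ADAT2 log2 difference was -2.21 (SE 0.10, edgeR adjusted p = 1.4e-15). METTL8 had 291 and 320.0 and 1083 and 1079.7. The METTL8 log2 difference was -1.82 (SE 0.08, edgeR adjusted p = 3.67e-16). Scaling by library size alone moved the median of all genes to -0.34 against MDA-MB-231 and -0.27 against SUM159, from -0.03 and -0.06. It left 16 members higher and 29 lower than in MDA-MB-231 in place of 27 and 22 (5099 and 8196 of all genes in place of 6463 and 6689), and 13 higher and 38 lower than in SUM159 in place of 18 and 33. The differences named here are larger than that shift.

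**Figure D4:**
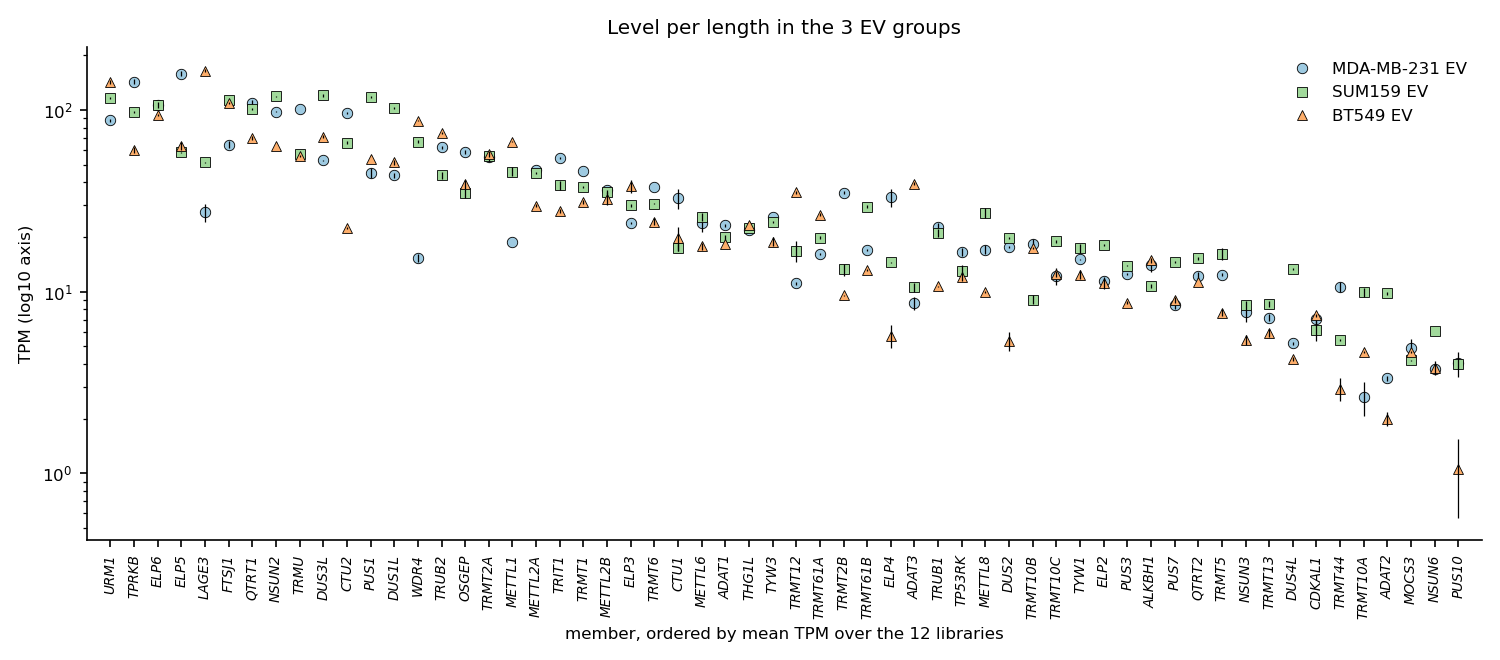
TPM (vertical axis, log10 scale) of the 58 members, ordered by mean TPM over the 12 libraries, in the EV libraries of MDA-MB-231 (circles), SUM159 (squares) and BT549 (triangles). Symbols are means of 2 libraries and vertical bars join the 2 values. The symbols of LAGE3, ELP4 and WDR4 are spread widest between the lines, while those of TRMT2A and THG1L nearly coincide.

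The ratio of partner subunits was computed per library from TPM. METTL1 over WDR4 was 0.736 and 0.634 in SUM159 EV and 1.096 and 1.094 in SUM159 KD, and it was 0.777 and 0.754 in BT549 EV and 0.451 and 0.504 in BT549 OE, so that the 2 experiments moved it in opposite directions without overlap. In MDA-MB-231 the EV and KD ratios overlapped, between 1.17 and 1.31. TRMT6 over TRMT61A was 1.498 and 1.58 in SUM159 EV and 0.763 and 0.853 in SUM159 KD, while in MDA-MB-231 it was 2.34 and 2.32 in EV against 2.51 and 2.67 in KD. QTRT1 exceeded QTRT2 in every library, by 6.06 to 9.06 times in the 10 libraries other than BT549 OE and by 15.7 and 12.5 times in BT549 OE. ADAT2 was below ADAT3 in 11 libraries and equal to it in the first SUM159 EV library (1.001), with the lowest ratios, 0.0454 and 0.0563, in BT549 EV. These are ratios of polysomal mRNA, and protein was not measured in these files.

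**Figure D5:**
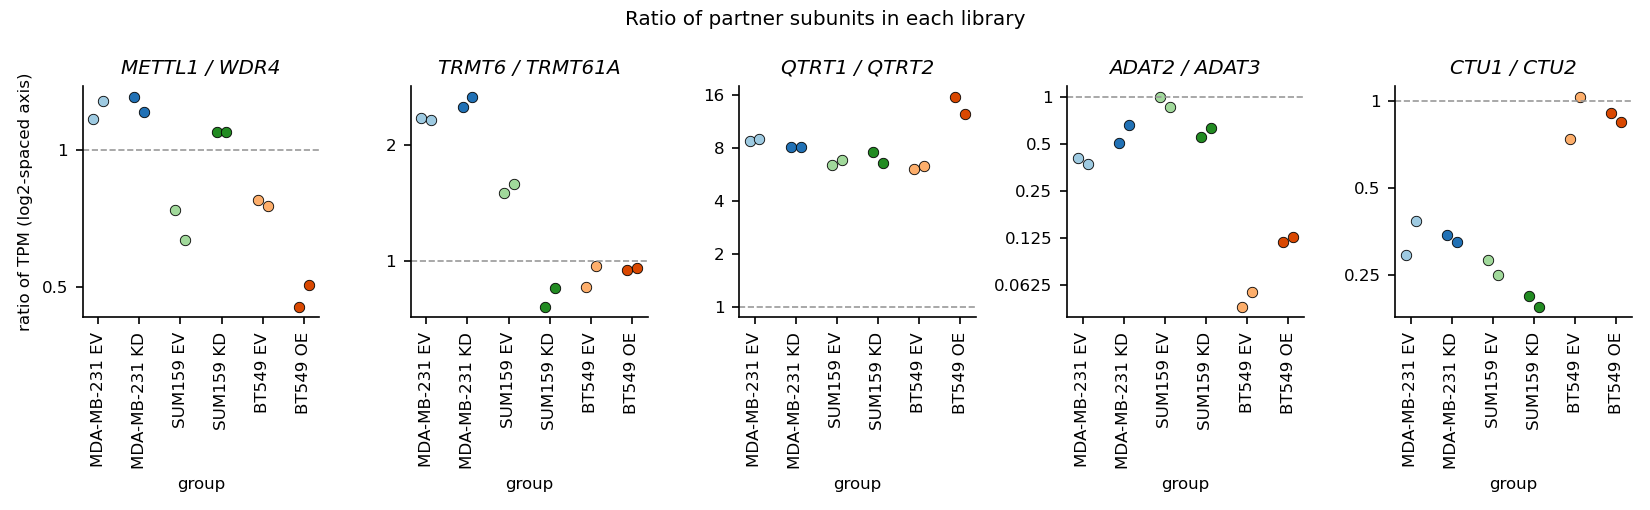
Ratio of TPM between the 2 subunits of 5 enzymes (vertical axis, spaced by log2) in each library (points), by group along the horizontal axis, with a dashed line at a ratio of 1. The METTL1/WDR4 points of SUM159 KD lie above those of its EV and the points of BT549 OE below those of its EV, the TRMT6/TRMT61A points of SUM159 KD lie below its EV, and QTRT1/QTRT2 was highest in BT549 OE.

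The table lists 507 transcripts of the members, between 1 and 28 for a gene. Protein-coding transcripts held most of their counts, with a median share over the members between 96.7% (SUM159 KD) and 97.9% (BT549 EV), beside 92.4% to 93.3% of all counts. For METTL2A the leading transcript was a retained-intron one with 50.8% of its counts. TRMU had 42.9% of its counts in coding transcripts in MDA-MB-231 EV, 44.2% in BT549 EV and 66.2% in BT549 OE, and DUS4L 58.7%, 33.4% and 56.7%. For both, a change of the summed count need not be a change of the coding mRNA. Counting protein-coding transcripts alone left 9 members lower in both KD lines in place of 12, without TRMT44, ELP3 and DUS4L, and ELP3 in MDA-MB-231 was then -0.05 with an edgeR adjusted p of 0.63.

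Other genes of tRNA metabolism were counted in the same way, to be read beside the shares of all genes: 31.4% lower and 28.6% higher in SUM159 KD, 16.5% and 21.2% in MDA-MB-231 KD and 35.0% and 35.6% in BT549 OE. A further 27 tested genes, no members, encode tRNA-modifying enzymes, their partners or related enzymes that modify other RNA. Of these, 14 fell and 9 rose in SUM159 KD (median -0.29) and 7 fell and 4 rose in MDA-MB-231 KD (median -0.03). In BT549 OE 9 fell and 11 rose (median 0.09). Of 8 genes made up of TRMT112 and its known partners, 6 fell and 1 rose in SUM159 KD and 4 fell and 2 rose in MDA-MB-231 KD. In BT549 OE 2 fell and 6 rose. TRMT112 is included in each of these counts, and its own direction was set by the KD or OE. Among them ALKBH8, which methylates the wobble side chain that Elongator starts, had 1798 and 1915 in EV against 226 and 233 in KD of SUM159. Both ALKBH8 values in KD lay below both in EV, a log2 fold change of -3.02 (SE 0.07, edgeR adjusted p = 5.33e-20). A fall of this size was not seen in MDA-MB-231 KD. The lowest log2 fold change of the 8 genes there, -1.23, was that of TRMT112 itself, the target of the shRNA. Of 26 genes of tRNA processing, splicing and CCA addition, 13 fell and 11 rose in SUM159 KD (median -0.11), 5 fell and 4 rose in MDA-MB-231 KD (median -0.10) and 6 fell and 17 rose in BT549 OE (median 0.41). Of 15 genes of RNA polymerase III, its initiation factors and its repressor, 7 fell and 4 rose, 3 fell and 2 rose, and 4 fell and 6 rose in the same order (medians -0.14, -0.11 and 0.07).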

How the data were processed

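RNA of pooled polysome fractions was sequenced in 12 libraries of human TNBC cell lines, 2 in each of 6 groups taken from the submitters' labels. The deposited table holds expected counts per transcript for each library, made by the authors before deposit, and its values need not be whole: 3.10% of those above 0 are. The submitters' processing notes name Trimmomatic, HISAT2, SAMtools, Partek and GRCh38, while the counting tool, the annotation and the strand setting are not given in the sources used here. The labels name a poly(A) NEBNext Ultra II kit and the methods a stranded TruSeq Total RNA kit after rRNA depletion, so how RNA was selected is unsettled. For 10254 transcripts (5.08%) at least 1 library carries a question mark in place of a number, and no transcript is at 0 in all 4 BT549 libraries, so the deposited mark was counted as 0. The numbers that marked transcripts do carry make up 0.121% of BT549 counts.

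Transcripts were matched to GENCODE 44 by identifier without version (79.6% of 201932, and 75.9% with the version), summed per gene symbol and rounded. Of the symbols, 111 join more than 1 gene identifier. Genes were kept by filterByExpr and tested in 1 edgeR quasi-likelihood fit of the 6 groups with TMM scaling (factors 0.8953 to 1.117, common dispersion 0.000835, 6 residual degrees of freedom). P-values were two-sided, adjusted by the Benjamini-Hochberg method over all 16538 genes, and called under 0.05. Standard errors are the absolute log2 fold change over the square root of F. The code was checked on simulated counts. Overlaps between genes were counted over exonic bases and over shared stretches of 150 bases.

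The members, the other gene lists and the tests were chosen with earlier results of these data known. Values per library are given for members chosen by rule: in each KD or OE comparison the 3 called members with the largest change in each direction, in each comparison of EV groups the 2 largest, both with a mean of at least 50 normalized counts, members called in opposite directions in the KD lines or in the same direction in both with the opposite one in OE, and METTL2A and METTL2B. Further members were named after their values were seen. Alternatives were RLE or library size scaling, DESeq2's Wald test, no filter or a mean of at least 50, a replicate block, each line alone, the leading transcript, protein-coding transcripts, marked transcripts left out, an added log2 threshold of 1 and leaving out each library. Total counts of 22954226 to 27434677 per library limit precision by counting error, and a count of 0 allows up to 3 counts. Python 3.11.15, pandas 2.3.3, numpy 2.4.6, scipy 1.17.1, matplotlib 3.10.9, R 4.3.3, edgeR 4.0.16, limma 3.58.1 and DESeq2 1.42.0 were used.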

Additional observations from a re-analysis of the deposited data

Results flagged for a closer look

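The members below are singled out because their KD effect differed between the lines in the interaction test (MDA-MB-231 minus SUM159, log2, edgeR's quasi-likelihood test), with calls in opposite directions in each line. NSUN2, the tRNA m5C methyltransferase, had a difference of 1.30 (SE 0.06, edgeR adjusted p = 9.63e-15). ADAT3, the partner of the wobble deaminase ADAT2, had -1.10, URM1, the sulfur carrier, had -0.81, DUS1L, a dihydrouridine synthase, had -0.33 and ELP6, an Elongator subunit, had -0.27. Over the whole set 32 members had a higher KD effect in MDA-MB-231 than in SUM159 and 8 a lower one (55.2% and 13.8%), beside 27.7% and 23.2% of all genes. The residual TRMT112 level and the proliferation genes also differed between the lines, and their part in these differences was not tested.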

How the results depend on the processing

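Of 67 values of single members chosen by rule, under up to 22 alternatives, 1356 kept their direction and side of the threshold, 93 lost the call, 1 gained it (METTL2A in MDA-MB-231 under library size scaling) and 7 changed sign. All 7 sign changes were METTL2B in MDA-MB-231, a value of 0.00 that was not called: -0.089 with library size scaling, -0.013 with a mean of at least 50 counts, -0.011 with each line alone, -0.035 with the leading transcript, -0.043 with protein-coding transcripts and -0.033 to 0.038 without single libraries. The causes were not tested.

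Library size scaling left 2 members higher in MDA-MB-231 KD, 0 higher in both KD lines and 16 higher in BT549 EV than in MDA-MB-231 EV. The leading transcript alone gave 4 higher and 10 lower in MDA-MB-231, 3 higher in SUM159, 16 higher in BT549, 17 higher and 5 lower in the difference of KD effects, 6 lower in both KD lines, 1 of them higher in OE, and 0 higher in both. Over all genes it gave 2012 higher and 1221 lower in MDA-MB-231 in place of 3505 and 2735, and 2489 with a lower KD effect in place of 3839. A log2 threshold of 1 left 0 higher and 0 lower in MDA-MB-231, 0 and 4 in SUM159, 2 and 1 in BT549 and 1 and 1 in the difference. Between EV groups it left 2 and 10 (MDA-MB-231 against SUM159), 9 and 8 (BT549 against MDA-MB-231) and 4 and 9 (BT549 against SUM159). No member then fell in both KD lines (0), fell in both and rose in OE (0) or rose in both (0). For these patterns, the difference and the EV groups, the share of all genes at this threshold was not computed. Whether the members differ from all genes there was not tested.

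Leaving out single libraries gave 4 to 7 higher in MDA-MB-231, 6 to 10 higher in SUM159, 8 to 13 lower in both KD lines, 4 to 7 of these higher in OE and 0 to 3 higher in both. A group reduced to 1 library was assumed to vary like the others. Over all genes, too, fewer were called higher in a KD line when a library of that line was left out.

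Replicate numbers did not pair the libraries: deviations of same-numbered libraries in the 2 arms of a line correlated at 0.003 (MDA-MB-231), -0.030 (SUM159) and 0.016 (BT549) over 16538 genes. With the replicate block 17 members were lower in MDA-MB-231 KD, 10 higher in SUM159 KD and 13 lower in both, and the calls of ELP6 and DUS1L in MDA-MB-231 and of METTL2B in SUM159 were lost. Depth limits the least abundant members, such as PUS10, TRMT10A and NSUN6, most.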
